A study of Triticum aestivum with 54 samples.

Results

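The genes described here encode gibberellin 20-oxidases, and they were taken as every probe set of the array whose symbol or synonym in the probe-to-gene annotation begins with GA20ox. The rule found 4 of 61115 probe sets, for 3 genes. GA20ox1d was read by 2 probe sets, Ta.141.1.S1_at and Ta.141.1.S1_x_at, here called its _at and _x_at probe sets. GA20ox1b was read by Ta.23667.1.S1_at and GA20ox1a by Ta.23668.1.S1_at. The names came from synonyms in RefSeq (assembly IWGSC CS RefSeq v2.1), and none of the 3 sequence clusters that these probe sets come from had a further probe set on the array. Both GA20ox1d probe sets share a target, so they are not independent readings of it.

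Expression was measured with the Affymetrix Wheat Genome Array in young inflorescence at booting and in the second leaf of seedlings aged 3 weeks, with 3 arrays for each of 9 genotypes in each tissue, 54 in all. AT2 is a synthetic allotetraploid wheat (A and S genomes), made by crossing Aegilops longissima as the mother with Triticum urartu and doubling the chromosomes of the hybrid with colchicine, and was sampled at the selfed generations S5, S6, S7 and S8. TD (wild emmer, ssp. dicoccoides) and TTR13 (durum) are natural tetraploids with A and B genomes, 1 line each. Mix is RNA of both parents combined in equal amounts, and the diploid parents are T. urartu (line TMU06, A genome) and Ae. longissima (line TL05, S genome). All plants grew in chambers without special treatment, each array of the plant lines carried RNA pooled from several plants, and it was not stated whether the 3 Mix arrays came from separate mixtures. The genotype of each array was read from its title, since the genotype field of the labels names AT2 throughout. Tissue was read from the tissue field, while the extraction note gives leaf for all arrays.

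Gibberellins are plant hormones that drive stem elongation, leaf expansion and flowering. Gibberellin 20-oxidases oxidise gibberellin precursors in successive steps, and gibberellin 3-oxidases then turn their products into the active hormones. The step is widely regarded as a point of control over how much hormone is made, the genes are repressed by active gibberellin through DELLA proteins, and in rice the loss of a gibberellin 20-oxidase underlies the semi-dwarf stature of modern varieties. In wheat the suffixes a, b and d name the copies of the A, B and D subgenomes. None of the genotypes on these arrays has a D genome, and which copies the probes of each set bound was not tested.

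All values below are log2 levels that the authors made with the robust multichip average (RMA), which corrects background, normalises between arrays and summarises the probes of a set. The 4 probe sets were dim. Over 54 arrays their log2 levels ran between 4.72 and 6.60 with a median of 5.46, and they ranked between the 49.9th and the 76.8th percentile of their arrays. Array medians were 4.69 to 4.92, and a signal below that of its own array cannot be told from background here. This was so only for GA20ox1b on 1 array of AT2 S5 young inflorescence. A signal above the median was not thereby shown to be detected. The median SD between the 3 arrays of a genotype and tissue was 0.18.

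Probe sets entered the analysis of a tissue if some genotype had all 3 arrays over the 65th percentile of their own array (5.64 to 5.75). In leaf this kept 25940 probe sets and 3 of the 4 members, all but GA20ox1a, and in young inflorescence 25323 probe sets and 1 member, the GA20ox1d _at probe set. Those members passed through Ae. longissima alone, and the GA20ox1d _x_at probe set in leaf also through Mix. A member that passed in this way was high in Ae. longissima by the filter itself, so calls against Ae. longissima are given with the adjusted p of the unfiltered fit as well. The _x_at probe set was likewise high in Mix leaf by the filter, and its calls that use Mix leaf are given with their outcome without the filter. For members that did not pass, the difference and its adjusted p come from a fit of all 61115 probe sets, which is said at most such values. No member was over the 65th percentile on most arrays of a tissue. Of 27 leaf arrays GA20ox1a was over it on 6 and GA20ox1b on 10, and of 27 young inflorescence arrays on 2 and 1. The GA20ox1d _at and _x_at probe sets were over it on 7 and 10 leaf arrays and on 8 each in young inflorescence. Differences were tested with limma, 27 arrays per tissue or 54 for tissue contrasts, with p-values adjusted by Benjamini-Yekutieli and called under 0.05. All adjusted p-values below are from those fits and measure the spread between arrays. Of the 180 differences fitted for the 4 probe sets, 29 were called, over both kinds of fit. Among the same comparisons the share of probe sets called ran from 2.8% to 89.4%. The lowest was S8 minus S5 in young inflorescence over all probe sets, and the highest the mean tissue difference over analysed ones.

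The tissue labels were set against marker lists in the mean difference of 9 genotypes, young inflorescence minus leaf. Of 18 analysed probe sets for photosynthesis genes, 16 were called lower in young inflorescence and 2, both for rbcl, higher. Of 17 for histones H2A and H2B, which dividing cells make, 16 were called higher and 1, for H2A-3, lower. The 1 analysed probe set of raftin1b, a pollen coat protein gene listed as an inflorescence marker, went against its list (-0.60). Across analysed probe sets, arrays of 1 genotype correlated with r of 0.984 to 0.996 in young inflorescence, and of 0.964 to 0.996 for leaf arrays.

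GA20ox1d was at its highest in Ae. longissima. In leaf, the _at probe set read 5.55, 5.61 and 5.26 in T. urartu and 6.17, 6.30 and 6.34 in Ae. longissima, and the parents did not overlap. The lowest Ae. longissima array, 6.17, stood above all 24 other leaf arrays, of which the highest was a Mix array at 6.04. The share of all probe sets without overlap was not counted, here or in later comparisons of genotypes. Where a member passed the filter through Ae. longissima, the filter favours a separation of that genotype. The difference, T. urartu minus Ae. longissima, was -0.80 (standard error 0.16, adjusted p = 0.00211), and without the filter the adjusted p was 0.00371. Between the parents 46.5% of the analysed leaf probe sets were called, so a call was the common case.

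The _x_at probe set of GA20ox1d, a class of probe sets in which some probes also match other sequences, read 5.46, 5.99 and 5.86 in T. urartu leaf and 6.23, 6.60 and 6.30 in Ae. longissima leaf. Again no array of another genotype reached the lowest Ae. longissima array. The difference was -0.61 (standard error 0.16, adjusted p = 0.0270, and 0.0486 without the filter). This call was lost without Ae. longissima replicate 2 (adjusted p = 0.219), without Ae. longissima replicate 3 (0.0534), without T. urartu replicate 1 (0.290), and when only the parents' arrays were fitted (0.181).

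GA20ox1b in leaf had the same direction, with 5.38, 5.03 and 5.89 in T. urartu and 5.81, 6.14 and 6.13 in Ae. longissima. The highest T. urartu array lay above the lowest Ae. longissima array, and the difference of -0.59 (standard error 0.18) was not called (adjusted p = 0.0863). GA20ox1a in leaf read 5.76, 5.58 and 5.53 in T. urartu and 5.48, 5.25 and 5.63 in Ae. longissima. Its difference of 0.17 was not called either (95% interval -0.15 to 0.48, fit of all probe sets, in which 23.4% were called).

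In young inflorescence no member was called between the parents, where 50.9% of the analysed probe sets and 24.8% of all probe sets were called. Of the 4 differences, 2 had an unadjusted p under 0.05, and 1 was called with Benjamini-Hochberg adjustment. The GA20ox1d _at probe set read 5.54, 5.55 and 5.89 in T. urartu and 5.90, 5.92 and 6.28 in Ae. longissima, which do not overlap but lie close, and differed by -0.37 (95% interval -0.72 to -0.02, adjusted p = 0.628). The _x_at probe set read 5.65, 5.71 and 5.42 in T. urartu and 5.95, 5.98 and 5.59 in Ae. longissima, which overlap. It differed by -0.25 (fit of all probe sets). Of 24 arrays of other genotypes, 10 lay above its lowest Ae. longissima array. GA20ox1a had the opposite direction, with 5.96, 5.82 and 5.55 in T. urartu and 4.85, 5.26 and 5.59 in Ae. longissima. Its difference of 0.54 (standard error 0.16) had an adjusted p of 0.0914 in the fit of all probe sets. Whether the parental difference changed between tissues was tested by interaction, and 0 of 4 were called and 0 had an unadjusted p under 0.05 in limma (36.3% of analysed and 19.4% of all probe sets called). The 4 interactions, young inflorescence minus leaf, were 0.36 to 0.42.

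**Figure D1:**
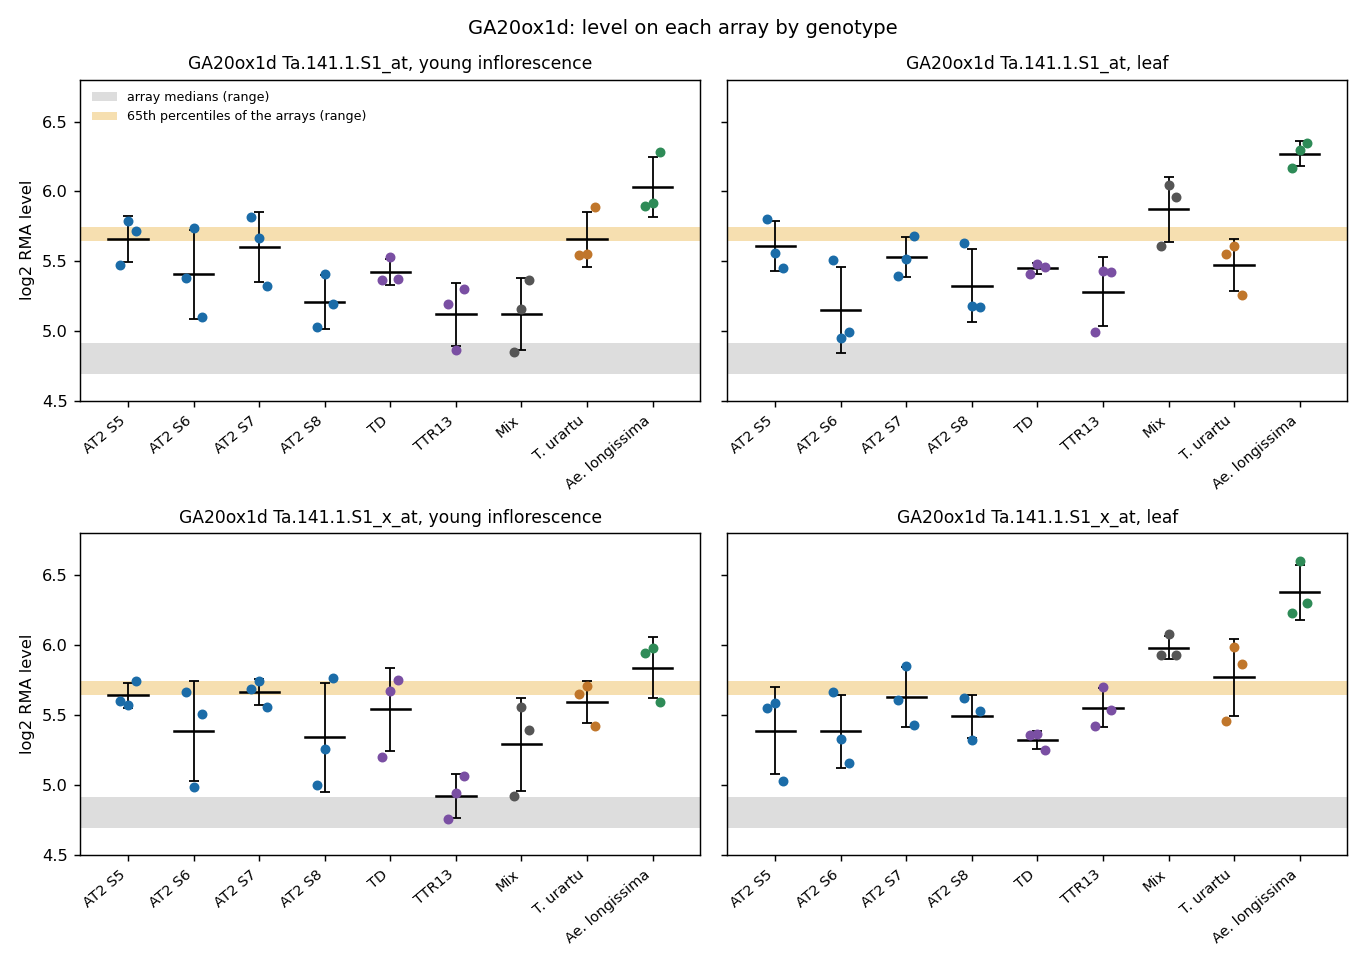
Log2 RMA levels of the 2 GA20ox1d probe sets (rows) in young inflorescence and leaf (columns), with 1 point per array, the mean as a line and the SD of 3 arrays as a bar. Ae. longissima stood above all other genotypes in leaf for both probe sets, and for the _at probe set Mix lay near the mid-parent level in leaf and below both parents in young inflorescence.

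In the synthetic tetraploid, GA20ox1d and GA20ox1b in leaf lay below Ae. longissima. The 12 AT2 leaf arrays of the GA20ox1d _at probe set ran between 4.95 and 5.81 with a median of 5.48, against 6.17 to 6.34 in Ae. longissima. The mean of the 4 generations was lower (difference -0.87, standard error 0.13, adjusted p = 4.41e-05, and 6.40e-05 without the filter), where 53.9% of the analysed leaf probe sets were called. The _x_at probe set ran between 5.03 and 5.85 in AT2 leaf, against 6.23 to 6.60 in Ae. longissima, with a difference of -0.91 (standard error 0.13, adjusted p = 2.46e-05, and 3.44e-05 without the filter). For both probe sets every AT2 leaf array lay below every Ae. longissima leaf array.

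GA20ox1b ran between 5.15 and 5.61 on the AT2 leaf arrays, against 5.81 to 6.14 in Ae. longissima, again without overlap. Its difference was -0.72 (standard error 0.15, adjusted p = 0.00177, and 0.00243 without the filter). These 3 calls held without any 1 array and under every alternative run. GA20ox1a did not share the pattern, with a mean of 5.45 both on the 12 AT2 leaf arrays and in Ae. longissima (difference 0.00, 95% interval -0.25 to 0.25, fit of all probe sets, 35.3% called).

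In young inflorescence the GA20ox1d _at probe set ran between 5.03 and 5.82 in AT2, against 5.90 to 6.28 in Ae. longissima. The groups did not overlap, and the difference was -0.56 (standard error 0.13, adjusted p = 0.00814, and 0.0128 without the filter), where 53.7% of the analysed probe sets were called. The call was lost without Ae. longissima replicate 3 (adjusted p = 0.192). The _x_at probe set of the same gene was not called, with 4.98 to 5.77 in AT2 and 5.59 to 5.98 in Ae. longissima, which overlap (difference -0.33, adjusted p = 0.849, fit of all probe sets). GA20ox1b ran between 4.72 and 5.22 in AT2, against 5.26 to 5.36 in Ae. longissima, with a difference of -0.33 in the fit of all probe sets (adjusted p = 0.0477, 29.2% called). That call lay close to the threshold and was lost in 19 of 27 fits that left out 1 array, with adjusted p-values of up to 0.295. GA20ox1a differed by 0.12 and was not called (95% interval -0.14 to 0.38, fit of all probe sets).

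Against T. urartu, 0 of 4 members were called for the AT2 mean in either tissue. In leaf 44.5% of the analysed and 25.2% of all probe sets were called, and in young inflorescence 41.5% and 21.8%. In each tissue 1 of the 4 had an unadjusted p under 0.05 in limma, and Benjamini-Hochberg adjustment called 0 in leaf and 1 in young inflorescence. All 8 differences were below 0, between -0.07 and -0.30 in leaf and between -0.09 and -0.42 in young inflorescence. The interval for the GA20ox1d _at probe set in leaf was -0.34 to 0.20, so a difference of that size was not shown to be absent. GA20ox1a in young inflorescence was the farthest from T. urartu, with AT2 arrays between 5.04 and 5.53 and T. urartu arrays between 5.55 and 5.96. Its difference of -0.42 had an adjusted p of 0.109.

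Among the generations, S8 minus S5 alone was tested. It was called for 0 of 4 members in either tissue (11.3% of analysed probe sets called in leaf and 6.67% in young inflorescence, and 4.36% and 2.8% of all probe sets). An unadjusted p under 0.05 in limma was found for 0 of 4 in leaf and 1 of 4 in young inflorescence, and Benjamini-Hochberg adjustment called 0. That 1 was the GA20ox1d _at probe set, with 5.03, 5.41 and 5.20 in S8 and 5.47, 5.79 and 5.71 in S5 (difference -0.45, 95% interval -0.80 to -0.10, adjusted p = 0.793), which did not overlap.

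Nonadditive expression was read against Mix, the RNA of both parents measured together. In leaf, the GA20ox1d _at probe set averaged 5.61 in S5, 5.15 in S6, 5.53 in S7 and 5.33 in S8, against 5.61, 6.04 and 5.96 on the Mix arrays. All 4 means were below that of Mix (5.87), and S6 was called, with 5.51, 4.95 and 4.99 (difference -0.72, standard error 0.16, adjusted p = 0.0163). That call was lost without S6 replicate 2 (adjusted p = 0.123) or 3 (0.107), without Mix replicate 2 (0.131) or 3 (0.105), and when only the 2 groups were fitted (0.310). The differences of S5, S7 and S8 were -0.26, -0.34 and -0.55, with adjusted p-values of 1, 1 and 0.0932. Over the 4 probe sets and both tissues this was the only call of a single generation. In leaf, 23.8% of the analysed and 9.8% of all probe sets were called for S5, 19.7% and 8.4% for S6, 10.8% and 4.3% for S7, and 29.3% and 12.9% for S8. In young inflorescence the shares were 24% and 10.2% for S5, 20.8% and 9.11% for S6, 15.4% and 5.61% for S7, and 19.4% and 8.3% for S8. An unadjusted p under 0.05 in limma was found for 1, 2, 2 and 2 of 4 members in S5, S6, S7 and S8 leaf, and for 1, 0, 1 and 0 in young inflorescence. Benjamini-Hochberg adjustment called 1, 2, 0 and 2 for the leaf arrays, while for young inflorescence it called 1, 0, 1 and 0.

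The mean of the 4 generations minus Mix in leaf was -0.51 for the _x_at probe set of GA20ox1d (standard error 0.13, adjusted p = 0.0326), -0.47 for its _at probe set (adjusted p = 0.0602), -0.35 for GA20ox1b (0.588) and -0.14 for GA20ox1a (1, fit of all probe sets). For the _x_at probe set the 12 AT2 arrays, at 5.03 to 5.85, lay below the Mix arrays at 5.93, 6.08 and 5.93. Of the analysed leaf probe sets 24.7% were called, and 10.4% of all probe sets. The _x_at call was lost without AT2 S7 replicate 3 or AT2 S8 replicate 2, without any 1 of the 3 Mix arrays (adjusted p of up to 0.296 over these), without the filter (0.0619) and with only the groups compared (0.0830).

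In young inflorescence no member was called for the AT2 mean minus Mix, where 28.1% of the analysed and 12.5% of all probe sets were called. Limma gave 1 of 4 an unadjusted p under 0.05 and Benjamini-Hochberg adjustment called that 1, the GA20ox1d _at probe set. It lay higher in AT2 than in Mix by 0.35 (standard error 0.13, adjusted p = 0.416), with 5.03 to 5.82 in AT2 and 4.85, 5.16 and 5.36 in Mix. The direction was opposite to leaf. The interaction, AT2 minus Mix in young inflorescence less the same in leaf, was 0.81 (standard error 0.19, adjusted p = 0.00964) for the _at probe set and 0.73 (adjusted p = 0.0580) for the _x_at probe set, where 18.4% of the analysed probe sets were called. The called interaction was lost without Mix leaf replicate 2 (adjusted p = 0.0826) or 3 (0.0586) and without Mix young inflorescence replicate 1 (0.127).

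Mix itself moved with this interaction. It was set against its parents in a comparison chosen after its values were seen. In young inflorescence the GA20ox1d _at probe set averaged 5.12 ± 0.26 in Mix, against 5.66 ± 0.20 for T. urartu and 6.03 ± 0.22 for Ae. longissima (SD, n = 3 each). All 3 Mix arrays lay below all 6 parental arrays. The difference of Mix minus the mean of the parents was -0.72 (standard error 0.15, adjusted p = 0.00727, and 0.0131 without the filter), where 12.6% of the analysed and 4.96% of all probe sets were called. It was lost without Mix replicate 1 (adjusted p = 0.155) and with only these groups fitted (0.0655). Mix minus Ae. longissima was -0.91 (adjusted p = 0.00101, and 0.00169 without the filter, 35.7% of analysed and 15.5% of all probe sets called) and Mix minus T. urartu -0.54 (adjusted p = 0.145, 25.6% of analysed and 10.9% of all probe sets called). The _x_at probe set of the same gene was not called, at -0.43 from the mean of the parents (adjusted p = 0.942) and -0.55 from Ae. longissima (0.345, fit of all probe sets).

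In leaf Mix lay at the mid-parent level for this probe set, with a difference of 0.00 (95% interval -0.29 to 0.29). No member was called in leaf for Mix minus the mean of the parents (7.89% of analysed and 3.32% of all probe sets called), minus Ae. longissima (24.9% and 11.2%) or minus T. urartu (21.3% and 8.67%), and limma gave 0, 2 and 1 of 4 an unadjusted p under 0.05 and Benjamini-Hochberg adjustment called 0 in each. The choice of reference thus changed the direction in young inflorescence and not in leaf. With the mean of the parents' log2 levels in place of Mix, the AT2 mean was lower in young inflorescence (difference -0.38, adjusted p = 0.0351) and in leaf (difference -0.47, adjusted p = 0.00313). The interaction was then 0.09 (adjusted p = 1). The mean of the parents includes Ae. longissima, in which this probe set was high by the filter itself. These calls against that mean come from filtered fits alone. Why the Mix arrays of young inflorescence read low was not tested.

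**Figure D2:**
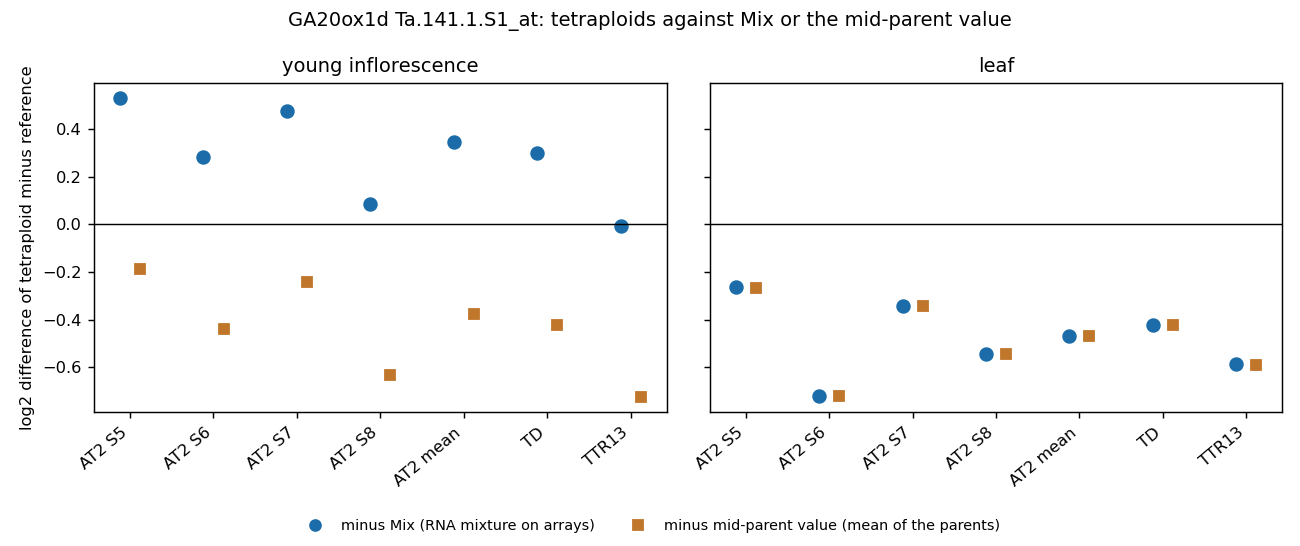
Log2 difference of each AT2 generation, the AT2 mean, TD and TTR13 for the GA20ox1d _at probe set, from Mix (circles) and from the mean of the parents (squares), without error bars. Both references gave nearly the same values in leaf, while in young inflorescence circles lay at or above 0 and squares below it.

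The natural tetraploids differed from AT2 on the GA20ox1b and GA20ox1a probe sets and not detectably on those of GA20ox1d. GA20ox1b in young inflorescence and GA20ox1a in both tissues had not passed the filter. TD and TTR13 carry a B genome where AT2 carries an S genome, and the paper states that the array was not made to tell subgenomes apart. Whether the probes bind both alike was not tested. In young inflorescence GA20ox1b ran between 4.72 and 5.22 on the 12 AT2 arrays with a median of 5.02. TD read 5.76, 5.65 and 5.33 and TTR13 5.35, 5.37 and 5.48, all 6 above the highest AT2 array. The AT2 mean minus the mean of TD and TTR13 was -0.50 (standard error 0.07, adjusted p = 1.42e-05, fit of all probe sets, in which 33.4% were called). The call held without any 1 array and under every alternative run.

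GA20ox1b had a like difference in leaf, where the AT2 arrays ran between 5.15 and 5.61, against 5.69, 5.76 and 5.63 in TD and 6.16, 5.38 and 5.91 in TTR13. Of the 6 natural arrays, 5 lay above all AT2 arrays. The difference was -0.45 (standard error 0.11, adjusted p = 0.0140, 56% of analysed probe sets called), and it was lost without TTR13 replicate 1 (adjusted p = 0.0891) or 3 (0.0531). The interaction with tissue was -0.05 (95% interval -0.32 to 0.22, adjusted p = 1), where 41.2% of the analysed probe sets were called. The Ae. longissima leaf arrays, at 5.81, 6.14 and 6.13, lay within the range of the natural tetraploids.

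GA20ox1a was lower in AT2 leaf than in the natural tetraploids, with 5.21 to 5.63 in AT2, against 5.93, 5.62 and 6.16 in TD and 6.24, 5.55 and 5.79 in TTR13. Of the 12 AT2 arrays, 10 lay below all natural arrays. The difference was -0.43 (standard error 0.09, adjusted p = 0.00541, fit of all probe sets, 31.4% called), a call that held without any 1 array and under every alternative run. In young inflorescence the difference was 0.12 (95% interval -0.08 to 0.32), with 5.04 to 5.53 in AT2 and 5.10 to 5.49 in the natural tetraploids. The interaction of 0.55 was called (standard error 0.14, adjusted p = 0.0144, fit of all probe sets, 22.6% called). It was lost without TD leaf replicate 3 (adjusted p = 0.0648) or TTR13 leaf replicate 1 (0.0787), the arrays with the highest levels of their groups.

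For GA20ox1d the AT2 mean minus the natural tetraploids in leaf was 0.04 for both probe sets (95% interval -0.17 to 0.24 each). In young inflorescence it was 0.20 for the _at probe set (adjusted p = 0.968, 59.6% of analysed probe sets called) and 0.28 for the _x_at probe set (0.595, fit of all probe sets). TTR13 minus TD was called for 0 of 4 members in either tissue, and 0 in leaf and 1 in young inflorescence had an unadjusted p under 0.05 in limma. Benjamini-Hochberg adjustment called that 1, the _x_at probe set, with 4.75, 4.94 and 5.06 in TTR13 and 5.20, 5.67 and 5.75 in TD (difference -0.62, adjusted p = 0.178). Between TTR13 and TD 21.9% of the analysed probe sets were called in leaf and 33.3% in young inflorescence, and 9.93% and 15.8% of all probe sets.

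Against Mix, which the comparisons of AT2 share, TD and TTR13 were each called lower in leaf on 1 of the 2 GA20ox1d probe sets. The TD arrays of the _x_at probe set read 5.35, 5.36 and 5.25, below all Mix arrays, and the difference was -0.66 (standard error 0.16, adjusted p = 0.0180, 36.6% of analysed probe sets called). It was lost without any 1 TD array or Mix replicate 2 (adjusted p of up to 0.106). It held under all 10 other alternatives, the unfiltered fit among them (adjusted p of up to 0.0329). The _at probe set of TD was not called (-0.42, adjusted p = 0.358). TTR13 minus Mix was -0.59 for the _at probe set (adjusted p = 0.0432, 38.4% called), a call near the threshold that was lost in 13 of 27 fits without 1 array and under 5 of 10 other alternatives. The _x_at probe set of TTR13 was not called (-0.43, adjusted p = 0.321). In young inflorescence GA20ox1b was higher in TD than in Mix, which read 4.82, 5.26 and 5.12, by 0.51 (standard error 0.12, adjusted p = 0.0134, fit of all probe sets, 16.5% called). That call was lost without TD replicate 1 or 2 or Mix replicate 1 (adjusted p of up to 0.199), against the mean of the parents (0.0516) and with only the groups compared (0.413). In TTR13 young inflorescence 0 of 4 members were called against Mix (46.7% of analysed and 23.9% of all probe sets called), 1 had an unadjusted p under 0.05 in limma, and Benjamini-Hochberg adjustment called 1.

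**Figure D3:**
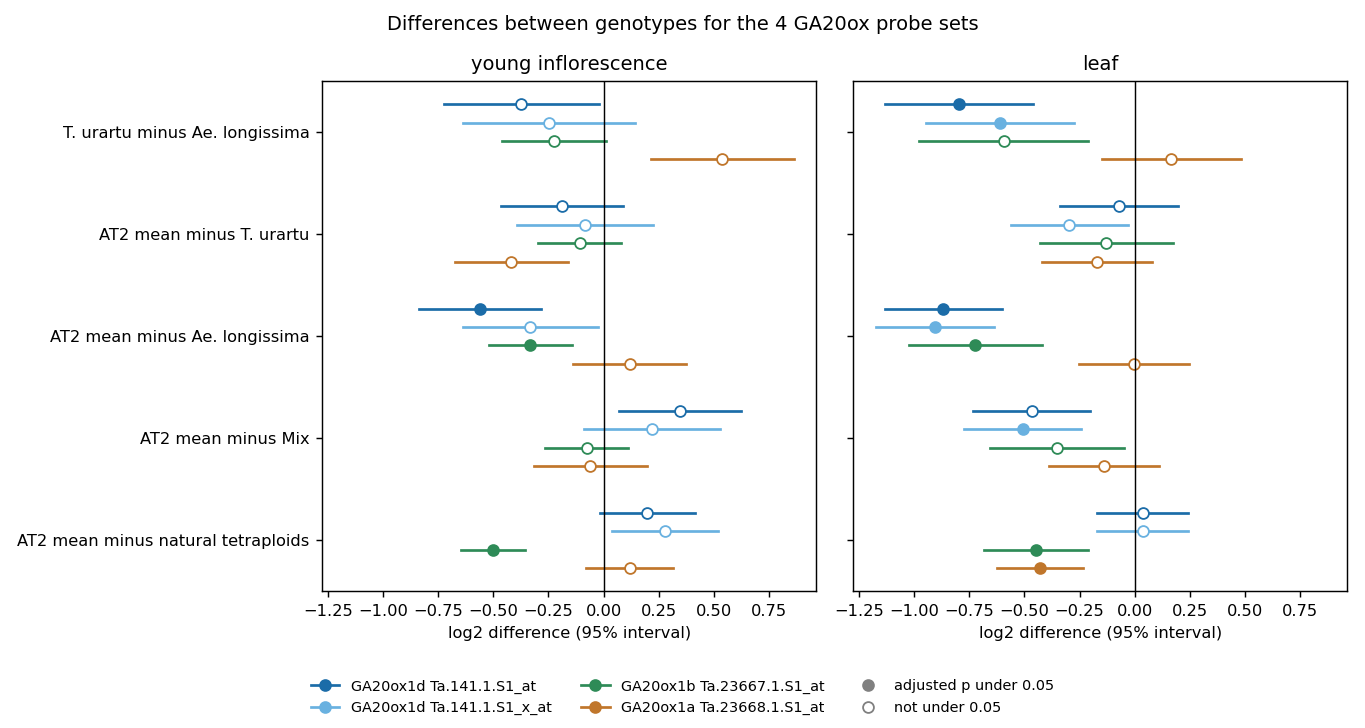
Log2 differences of the 4 GA20ox probe sets with their 95% intervals, in young inflorescence (left) and leaf (right), for 5 comparisons of genotypes, filled where the adjusted p was under 0.05. In leaf both GA20ox1d probe sets and GA20ox1b lay below 0 against Ae. longissima, while against the natural tetraploids GA20ox1b and GA20ox1a did.

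**Figure D4:**
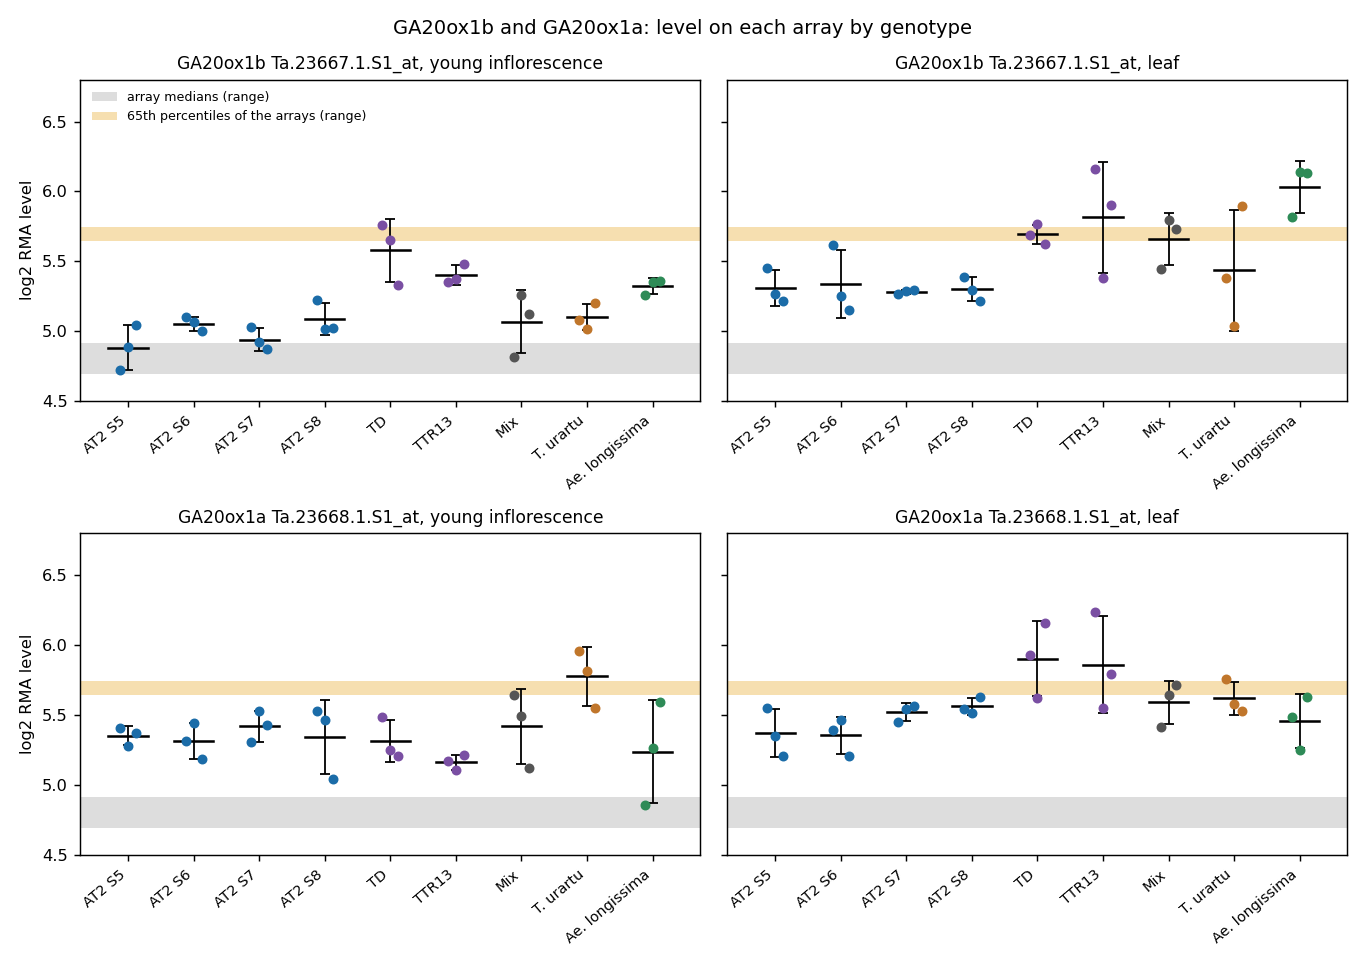
Log2 RMA levels of GA20ox1b (top) and GA20ox1a (bottom) on each array in young inflorescence and leaf, with the mean as a line and the SD of 3 arrays as a bar. TD and TTR13 lay above all AT2 arrays for GA20ox1b in young inflorescence, and T. urartu had the highest mean for GA20ox1a there.

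Between tissues, GA20ox1b was lower in young inflorescence than in leaf in all 9 genotypes, in 5 of them without overlap of the arrays. How many of all probe sets keep 1 direction or do not overlap was not counted, here or below. In single genotypes 63.1% to 74.3% of the analysed probe sets were called between tissues. The mean difference over 9 genotypes, young inflorescence minus leaf, was -0.38 (standard error 0.05, adjusted p = 7.29e-08, and 8.74e-08 without the filter), where 89.4% of the analysed probe sets were called. Ae. longissima read 5.26, 5.35 and 5.36 in young inflorescence and 5.81, 6.14 and 6.13 in leaf. The difference was -0.71 (adjusted p = 0.000912, and 0.00153 without the filter, 67% of analysed probe sets called). GA20ox1b had passed the filter through these leaf arrays. Mix differed by -0.59 (adjusted p = 0.00751, 71.4% called). In the other 7 genotypes the differences were -0.11 to -0.43 and not called. The Mix call was lost without leaf replicate 2 or young inflorescence replicate 1 (adjusted p of up to 0.137) and with only the groups compared (0.0537).

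GA20ox1a was lower in young inflorescence in 8 of 9 genotypes, the exception being T. urartu at 0.15. Its mean difference was -0.21 (standard error 0.05, adjusted p = 0.00442, fit of all probe sets, 69.5% called). Both natural tetraploids were called. TTR13 read 5.17, 5.10 and 5.21 in young inflorescence and 6.24, 5.55 and 5.79 in leaf, a difference of -0.70 (adjusted p = 0.00204, 44.2% of all probe sets called), lost without leaf replicate 1 (0.0999) and with only the groups compared (0.0641). TD read 5.49, 5.25 and 5.21 in young inflorescence and 5.93, 5.62 and 6.16 in leaf, a difference of -0.59 (adjusted p = 0.0192, 38.1% called). It was lost without leaf replicate 1 or 3 or young inflorescence replicate 2 or 3 (adjusted p of up to 0.316).

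For GA20ox1d the _at probe set was called between tissues in Mix, and the _x_at probe set in Mix and TTR13. The _at probe set was lower in young inflorescence in 5 genotypes and higher in 4, and its mean difference of -0.08 (95% interval -0.20 to 0.03) was not called. Mix was called, with 4.85, 5.16 and 5.36 in young inflorescence and 5.61, 6.04 and 5.96 in leaf (difference -0.75, standard error 0.17, adjusted p = 0.00138). That call held without any 1 array and under every alternative run. The _x_at probe set was lower there too (difference -0.69, adjusted p = 0.00860, and 0.0135 without the filter), lost without leaf replicate 2 or young inflorescence replicate 1 (up to 0.210). In TTR13 it differed by -0.63 (adjusted p = 0.0200, 74.3% of analysed probe sets called), with 4.75, 4.94 and 5.06 in young inflorescence and 5.42, 5.70 and 5.54 in leaf. That call was lost without TTR13 leaf replicate 2 or 3 or young inflorescence replicate 1 or 2 (up to 0.157). In Ae. longissima the _x_at difference was -0.54 and not called (adjusted p = 0.0847). The mean over 9 genotypes for the _x_at probe set was -0.19 (adjusted p = 0.0485, and 0.0592 without the filter), next to the threshold and lost in 33 of 54 fits without 1 array. Between tissues 0 of 4 members were called in AT2 S5 (64.7% of analysed probe sets called), S6 (65.6%), S7 (67.4%) and S8 (64.3%) or in T. urartu (63.1%). In limma 1, 0, 1 and 0 of 4 had an unadjusted p under 0.05 in S5, S6, S7 and S8 and 1 in T. urartu, and Benjamini-Hochberg adjustment called as many.

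**Figure D5:**
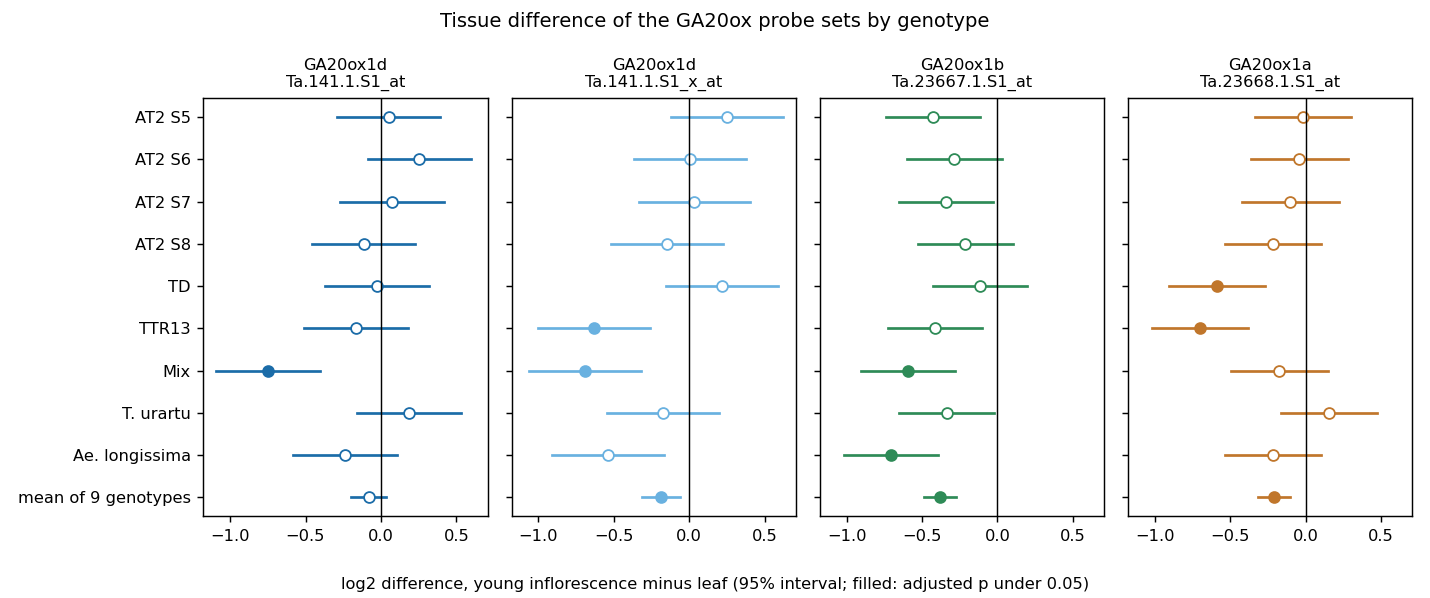
Log2 difference of young inflorescence minus leaf for each genotype and for the mean of 9 genotypes, with 95% intervals, 1 panel per probe set. GA20ox1b was below 0 in all 9 genotypes, while the GA20ox1d _at probe set had an interval clear of 0 in Mix alone.

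Most neighbours in the order of the 9 genotypes by mean overlapped within a tissue. Such neighbours lie close through the ordering itself, their overlap is no test, and its share over all probe sets was not counted. They overlapped in 8 of 8 pairs for GA20ox1a in leaf, GA20ox1b in leaf and the GA20ox1d _x_at probe set in young inflorescence, and in 7 of 8 pairs for the 5 other combinations of probe set and tissue. For GA20ox1d the pair that did not overlap was Ae. longissima and the genotype next below it. For GA20ox1a in young inflorescence it was T. urartu (5.78 ± 0.21) and AT2 S7 (5.42 ± 0.11, SD, n = 3 each). For GA20ox1b in young inflorescence it was Ae. longissima (5.32 ± 0.06) and T. urartu (5.10 ± 0.09), below TD (5.58 ± 0.22) and TTR13 (5.40 ± 0.07).

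The genotype means spanned at most 1.12 on the log2 scale, for the GA20ox1d _at probe set in leaf, between AT2 S6 at 5.15 and Ae. longissima at 6.27. The SD of the 18 group means was 0.31 for GA20ox1d and GA20ox1b and 0.21 for GA20ox1a, against a median of 0.32 over all probe sets and 0.72 over those analysed in either tissue. GA20ox1d and GA20ox1b thus varied about as much as the median probe set of the array, GA20ox1a less, and all 3 less than most analysed ones. Over the 18 group means, which share arrays across probe sets, both GA20ox1d probe sets correlated with r = 0.87, while GA20ox1d _at had r = 0.32 with GA20ox1b and 0.03 with GA20ox1a, and GA20ox1b had 0.38 with GA20ox1a. Deviations of single arrays from their group mean correlated little even between the GA20ox1d probe sets (r = 0.14 over 54 arrays).

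Genes with a like pattern were sought over the 18 group means among 29903 other probe sets analysed in either tissue, of which 119 have a named gene. The most alike named genes of the GA20ox1d _at probe set were 6-FEH, a fructan exohydrolase gene (r = 0.75), raftin1b (0.71), the alpha-tubulin gene TUBA (0.62), wci (0.52) and abu-7 (0.52). The least alike were DMAS1, which makes the iron carrier deoxymugineic acid (-0.52), the chromatin protein gene Hmgb3 (-0.43) and GLU1A (-0.33). For the _x_at probe set 6-FEH (0.77) and raftin1b (0.75) also led. GA20ox1b was most like UBC1, a ubiquitin-conjugating enzyme gene (0.78), and least like ALP (-0.79), and GA20ox1a was most like LTP3, a lipid transfer protein gene (0.74), and least like rab (-0.72). Probe sets without a named gene reached higher values (up to 0.94 for GA20ox1d _at, 0.96 for _x_at, 0.90 for GA20ox1b and 0.89 for GA20ox1a).

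Gibberellin pathway genes were searched by 26 names, which matched 5 probe sets, the 4 described and 1 more. RefSeq names 4 other genes among GA3ox, GA2ox, KAO, GID1, Rht and DELLA, and 0 of them had an annotated probe set here. The further match was BMY1, a beta-amylase gene, through its synonym amy1, a name also used for the alpha-amylases that gibberellin induces in the grain. In young inflorescence BMY1 averaged 4.59 to 4.80 over the 4 AT2 generations, 5.49 ± 0.19 in Mix, 6.23 ± 0.38 for T. urartu and 5.01 ± 0.10 for Ae. longissima (SD, n = 3 each). AT2 minus Mix was -0.81 (standard error 0.13, adjusted p = 0.000268, 28.1% of analysed probe sets called), with the AT2 means within the range of the array medians or below it. In leaf the same difference was -0.36 and not called (standard error 0.63, adjusted p = 1). That standard error draws on all genotypes, and the leaf arrays spread widely in TTR13 (SD 2.64) and AT2 S8 (SD 1.31). A leaf difference was thus not shown to be absent.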

How the data were processed

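The authors hybridised labelled RNA to the Wheat Genome Array and deposited log2 values made with RMA, and their processing notes list MAS5 and limma with no version. Present calls, which the paper used as a filter, were not used here, and a percentile filter took their place. All 54 columns matched a sample, and 0 did not. Values were used as deposited. Each tissue was fitted with lmFit and eBayes in limma 3.58.1 (R 4.3.3), with 1 mean per genotype, and tissue contrasts with 18 means. P-values were adjusted over all probe sets tested by Benjamini-Yekutieli. The number of arrays limits the precision. Of 61115 probe sets 1273 are paired with 1 gene, 0 with several and 59842 with none, 1272 matched RefSeq names, and 200 carry a name (94 genes).

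Named genes were the members, genes of the gibberellin list, probe sets of the same clusters, and for each member the 5 most and 3 least alike named genes and the 3 most alike other probe sets by Pearson correlation. The members and lists were chosen with earlier results of these data known. Alternatives were Benjamini-Hochberg adjustment, no filter, the 50th and 75th percentile, a filter over 7 groups, only the groups compared, median centring, quantile normalization, mid-parent values for Mix, a replicate block, and leaving out each array. The fit was tested on simulated data. Comparisons of Mix with its parents were added after the data were seen. Same-numbered arrays of different genotypes did not deviate together (median r of 0.01 in leaf and 0.00 in young inflorescence). Figures were drawn with matplotlib. No sequence was at hand to print.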

Additional observations from a re-analysis of the deposited data

Results flagged for a closer look

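A difference between tissues, tested itself by interaction, was found for 2 results. For the GA20ox1d _at probe set, AT2 minus Mix in young inflorescence exceeded the same difference in leaf by 0.81 on the log2 scale. With the mean of the parents in place of Mix the value was 0.0935 (adjusted p = 1), and its call was lost without Mix leaf replicate 2 or 3 or Mix young inflorescence replicate 1. For GA20ox1a, AT2 minus the natural tetraploids in young inflorescence exceeded that in leaf by 0.55, a call lost without TD leaf replicate 3 or TTR13 leaf replicate 1. Groups of 3 arrays were not searched for single outlying arrays.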

How the results depend on the processing

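The 65 results recomputed were chosen to include every call. Of them 29 were called, and 11 of these kept their call under each alternative run and without any 1 array. No called result reversed. With Benjamini-Hochberg adjustment, results not called became so for the GA20ox1d _at probe set minus Mix (S5 0.53 and S7 0.48 in young inflorescence, S8 -0.55 and TD -0.42 in leaf, AT2 mean -0.47 in leaf and 0.35 in young inflorescence), and for the parents in GA20ox1b leaf (-0.59) and GA20ox1a young inflorescence (0.54). The mean of the parents in place of Mix (log2 and then linear mean) reversed the _at probe set in young inflorescence for S5 (-0.19 and -0.20), S6 (-0.44 and -0.45), S7 (-0.24 and -0.26), S8 (-0.63 and -0.65), the AT2 mean (-0.38 and -0.39) and TD (-0.42 and -0.43), and the AT2 mean of the _x_at probe set (-0.21 and -0.21). It gave calls for TTR13 in young inflorescence (-0.73 and -0.74) and, in leaf, for S8 (-0.55 and -0.60), the AT2 mean (-0.47 and -0.53) and GA20ox1b in AT2 (-0.43 with the log2 mean). It ended the call of GA20ox1b in TD young inflorescence (0.37 and 0.36) and of the interaction (0.0935 and 0.14). The calls that it gave were for members that had passed the filter through Ae. longissima, itself part of that mean. They come from filtered fits alone.

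With only the groups compared, calls ended for S6 minus Mix (-0.72), the AT2 mean minus Mix (-0.51, _x_at), Mix minus mid-parent (-0.72), the parents (-0.61, _x_at), TD minus Mix in GA20ox1b (0.51), TTR13 minus Mix (-0.59), and young inflorescence minus leaf in Mix (GA20ox1b, -0.59), TD (GA20ox1a, -0.59) and TTR13 (GA20ox1a, -0.70). Median centring gave calls for S8 minus Mix (-0.65) and the AT2 mean minus Mix (-0.54) in leaf, the parents in GA20ox1a (0.59) and the mean tissue difference of the _at probe set (-0.17), ended that of GA20ox1b in AT2 minus Ae. longissima (-0.24) and turned AT2 minus the natural tetraploids in leaf to -0.00328 (GA20ox1d _at) and -0.00484 (GA20ox1d _x_at). Quantile normalization ended GA20ox1b in AT2 minus Ae. longissima (-0.27) and TTR13 minus Mix (-0.58), and turned TTR13 minus Mix in young inflorescence to 0.0168 and Mix minus mid-parent in leaf to 0.0048. Without the filter the _x_at probe set lost AT2 minus Mix (-0.51) and the mean tissue difference (-0.19), and TTR13 minus Mix was lost (-0.59). With the 50th percentile the last 2 were lost again (-0.19 and -0.59). No member passed a 75th percentile filter.

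With the replicate number as a block, GA20ox1b in AT2 minus Ae. longissima (-0.33, adjusted p = 0.0697) and TTR13 minus Mix (-0.59, adjusted p = 0.0662) lost their calls, and no other call changed. Same-numbered arrays correlated over 0.1 in 12 of 108 pairs in leaf and 9 of 108 in young inflorescence, so the numbers were not taken as pairs.

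Leaving out 1 array at a time gave these ranges where a call or direction changed. Minus Mix in leaf: S6 -0.90 to -0.62, S8 -0.70 to -0.46, AT2 mean -0.60 to -0.38 (_at) and -0.54 to -0.46 (_x_at), TD -0.68 to -0.61, TTR13 -0.72 to -0.44. Minus Mix in young inflorescence: S8 -0.0497 to 0.21, AT2 mean -0.21 to 0.0515 (GA20ox1a) and -0.20 to 0.0196 (GA20ox1b), TD 0.39 to 0.64, TTR13 -0.14 to 0.12. AT2 minus Ae. longissima in young inflorescence gave -0.36 to -0.31 (GA20ox1b) and -0.63 to -0.44 (_at). AT2 minus natural tetraploids in leaf gave -0.56 to -0.36 (GA20ox1b), -0.0353 to 0.0741 (_at) and -0.000368 to 0.0799 (_x_at). The parents gave -0.82 to -0.39 (GA20ox1b) and -0.72 to -0.46 (_x_at) in leaf and 0.35 to 0.72 (GA20ox1a) in young inflorescence. Mix minus mid-parent gave -0.0078 to 0.14 (GA20ox1a), -0.17 to 0.0413 (GA20ox1b) and -0.0880 to 0.13 (_at) in leaf, and -0.20 to 0.0611 (GA20ox1a) and -0.84 to -0.58 (_at) in young inflorescence. The interactions gave 0.68 to 0.95 (_at) and 0.45 to 0.63 (GA20ox1a). Young inflorescence minus leaf gave -0.70 to -0.47 (GA20ox1b) and -0.83 to -0.51 (_x_at) in Mix, -0.73 to -0.46 in TD, -0.85 to -0.51 (GA20ox1a) and -0.71 to -0.55 (_x_at) in TTR13, and -0.21 to -0.16 for the mean (_x_at). The causes of these changes were not tested. The dim signals and 3 arrays per group limit all of them.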
